A study of Mus musculus with 10 samples.

Results

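A cluster of zinc finger genes on distal mouse chromosome 4 was followed through 10 RNA-seq libraries of primary keratinocytes. Its members are the 29 protein-coding genes of the FPKM table (fragments scaled to transcript length and library depth) in the interval around Zfp979 on GRCm38 chromosome 4, with starts from 145213463 to 147940895, out of 37991 identifiers in all. They were chosen by position around Zfp979, a gene selected on its measured levels across these libraries. The 21 members with a KRAB-like match in their reading frame are called KRAB members here, and the 8 without are Tnfrsf1b, Tnfrsf8, Gm16503, Miip, Fv1, Mfn2, Plod1 and 2510039O18Rik. Of the 29 members, 12 averaged 1 FPKM or more across the libraries and 17 did not. Tnfrsf8, the gene of the TNF receptor family member CD30, was listed at 0 in every library, 6 members stayed under 0.1 FPKM in every library, and 14 stayed under 1 FPKM in every library. At the edges of the interval, Tnfrsf1b was the first gene inside (0.0221 to 0.338 FPKM) and Vps13d the last outside before it (0.998 to 1.57 FPKM), while 2510039O18Rik was the last inside (19.6 to 36.6 FPKM) and Nppb the first outside after it (29.4 to 74.7 FPKM).

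Cells came from the skin of pups aged 4 to 5 days of the Bcl10tm1Mak line and were grown in serum-free medium with 0.05 mM calcium. The groups were Bcl10-/- cells given IL-17A at 200 ng/mL for 5 h (2 libraries), Bcl10-/- cells left unstimulated (2 libraries), Bcl10+/- cells given the same IL-17A (3 libraries) and Bcl10+/- cells left unstimulated (3 libraries). All groups therefore carry at least a single mutant allele, and no wild-type culture was analysed here. BCL10 is an adaptor of NF-kB signalling, and IL-17A is a cytokine that acts on keratinocytes in skin inflammation. The IL-17A and unstimulated libraries with the same genotype and replicate number are called a culture, which gives Bcl10-/- cultures 1 and 2 and Bcl10+/- cultures 1, 2 and 3. Each label also carries a library number. Numbers 1 to 14 cover both Bcl10-/- cultures and Bcl10+/- culture 1 (6 libraries), and numbers 33 to 38 cover Bcl10+/- cultures 2 and 3 (4 libraries). Neither the labels nor other sources used here say what these numbers stand for or give a strain background beyond the mutant line.

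Krt5 and Krt14, the keratins of basal keratinocytes, stood at 4430 to 6426 FPKM (Krt5) and 3723 to 5015 FPKM (Krt14) in every library. In the libraries labelled Bcl10-/- culture 1, Bcl10 itself was at 16.4 FPKM with IL-17A but at only 0.969 FPKM unstimulated, so this pair differed widely. In Bcl10-/- culture 2 it was at 16.6 FPKM with IL-17A and 17.0 FPKM unstimulated. Bcl10 was at 16.3 FPKM with IL-17A and 18.0 FPKM unstimulated in the libraries labelled Bcl10+/- culture 1, which goes against that label, and at 59.5 to 72.3 FPKM in cultures 2 and 3. The cause of these departures was not tested. Genotypes are therefore given as labelled. The estimated depth of the libraries was 15.9 to 50.8 M fragments, at which 3 fragments on a 1 kb transcript make 0.059 to 0.188 FPKM. In the Bcl10-/- unstimulated library of culture 1, the 10 most abundant genes took 12.6% of the summed FPKM, against 8.21% to 8.66% in the other libraries. Very low values need care, since Gapdh, a gene that all cells use, was listed at only 0.278 to 4.58 FPKM.

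KRAB zinc finger proteins are DNA-binding repressors. Their zinc fingers, of the type in which 2 cysteines and 2 histidines hold a zinc ion (C2H2), recognise DNA, often within endogenous retroviruses and other repeats. The KRAB box recruits TRIM28, which brings the histone methyltransferase SETDB1 and leads to H3K9 trimethylation and silencing. In mouse, such genes lie in clusters of recent duplicates that differ between inbred strains. Zfp979 has the synonym Ssm1b in RefSeq, a strain-specific modifier that directs DNA methylation of a transgene in mouse.

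Most KRAB members differ little in the sequence that encodes the start of the KRAB box. Part of this likeness was set by the choice, since the pattern that defines these members lies in the sequence shown. The 48 bases that end with the pattern used to find them (codons for phenylalanine, any pair of residues, glutamate, glutamate and tryptophan) are printed for the 11 members on which the values below turn or which show the main variants. Sequences are in coding orientation from GENCODE M21 transcripts on GRCm38, 5′ to 3′, and capitals mark bases that differ from the majority of the 21 members.
Zfp991 (chr4:147176750-147176797, plus strand): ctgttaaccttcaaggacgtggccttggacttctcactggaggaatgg
Zfp992 (chr4:146464407-146464454, plus strand): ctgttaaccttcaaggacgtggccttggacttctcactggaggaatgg
Zfp993 (chr4:146655803-146655850, plus strand): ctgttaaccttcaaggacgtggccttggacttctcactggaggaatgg
Zfp984 (chr4:147757778-147757825, minus strand): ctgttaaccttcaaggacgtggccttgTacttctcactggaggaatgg
Gm13212 (chr4:145620561-145620608, plus strand): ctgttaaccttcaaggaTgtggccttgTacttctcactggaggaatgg
Zfp990 (chr4:145534819-145534866, plus strand): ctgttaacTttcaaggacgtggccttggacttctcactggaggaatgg
Zfp985 (chr4:147581245-147581292, plus strand): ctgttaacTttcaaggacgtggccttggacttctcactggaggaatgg
Zfp982 (chr4:147510756-147510803, plus strand): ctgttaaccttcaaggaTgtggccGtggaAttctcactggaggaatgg
Zfp600 (chr4:146193310-146193357, plus strand): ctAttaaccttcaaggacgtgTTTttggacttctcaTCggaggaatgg
Zfp979 (chr4:147615356-147615403, minus strand): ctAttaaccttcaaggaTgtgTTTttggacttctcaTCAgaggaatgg
Zfp933 (chr4:147828746-147828793, minus strand): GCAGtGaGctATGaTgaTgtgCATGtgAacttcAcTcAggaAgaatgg
The windows of Zfp991, Zfp992 and Zfp993 were identical to each other and to the majority sequence. Zfp990 and Zfp985 shared the same single difference, and Zfp984 had 1 difference that Gm13212 also carried beside another. Zfp979 differed at 8 positions, and the window of Zfp933 was the most diverged, with 20 differences. Zfp600 differed at 6 positions, a variant also present in members that are not printed. Over the 21 KRAB members, 14 windows had 0 to 3 differences and the others had 6 to 20.

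Transcript sequence was shared to very different degrees, which bears on how reads could be assigned between copies. The share of 50-base stretches of a gene's transcripts that also occur in transcripts of another gene ran from 1.83% in Zfp933 to 89.1% in Rex2 among the KRAB members, with a median of 67.9%, and was over 50% in 14 of 21. It was 27.1% in Zfp979, 29.1% in Zfp990, 15.9% in Zfp985 and 11.9% in Zfp982. Zfp993 shared 81.9% and Zfp992 shared 37.5% of its stretches with Zfp991, and Zfp991 shared 67.1% with Znf41-ps, an unprocessed pseudogene in the same interval. Gm13212 and Zfp984 shared 45.9% and 46.9% of their stretches with each other, and Rex2 shared 80.4% with Zfp600. Of the 8 other members, 7 shared none. How reads were divided between copies is not stated, so levels of the KRAB members with much shared sequence are uncertain. The count of C2H2 matches ran from 0 in Gm21411, whose longest reading frame has 136 codons, to 20 in Gm13212, with a median of 11.

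The promoters of the cluster are related as well, and they are shown for the gene with the largest range of log2(FPKM + 1) (Zfp979), for a second member near 0 in the same libraries (Zfp985), for a similar pair that was transcribed in every library (Zfp984 and Gm13212) and for the diverged member Zfp933. They are RefSeq promoter windows on GRCm38.p6, from 250 bases before to 50 bases after the gene start, in gene orientation. Capitals mark the CCAAT motif, the GC box GGGCGG, the TATA box TATAAA, or the reverse complement of each. The run of 9 capitals in 4 of the sequences is the reverse complement of CCAAT overlapping GGGCGG.
Zfp979 (chr4:147642459-147642758, minus strand): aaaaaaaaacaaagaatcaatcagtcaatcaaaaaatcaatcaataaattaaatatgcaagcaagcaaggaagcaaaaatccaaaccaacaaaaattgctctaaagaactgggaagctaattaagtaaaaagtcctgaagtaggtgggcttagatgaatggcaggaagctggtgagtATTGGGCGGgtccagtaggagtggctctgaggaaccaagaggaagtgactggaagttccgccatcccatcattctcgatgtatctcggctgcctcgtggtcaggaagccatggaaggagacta
Zfp985 (chr4:147553027-147553326, plus strand): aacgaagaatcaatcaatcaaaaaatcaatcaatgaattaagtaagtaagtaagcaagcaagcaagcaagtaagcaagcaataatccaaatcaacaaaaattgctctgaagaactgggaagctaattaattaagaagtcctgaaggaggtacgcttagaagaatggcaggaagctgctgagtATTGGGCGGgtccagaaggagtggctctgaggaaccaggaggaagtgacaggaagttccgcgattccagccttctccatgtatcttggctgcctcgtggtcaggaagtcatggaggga
Zfp984 (chr4:147809739-147810038, minus strand): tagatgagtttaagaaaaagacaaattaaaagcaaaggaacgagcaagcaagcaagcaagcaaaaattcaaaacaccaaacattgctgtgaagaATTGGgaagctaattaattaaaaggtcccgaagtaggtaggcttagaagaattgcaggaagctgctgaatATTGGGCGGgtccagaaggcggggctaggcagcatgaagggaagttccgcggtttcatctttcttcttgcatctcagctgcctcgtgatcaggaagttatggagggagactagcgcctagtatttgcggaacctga
Gm13212 (chr4:145584950-145585249, plus strand): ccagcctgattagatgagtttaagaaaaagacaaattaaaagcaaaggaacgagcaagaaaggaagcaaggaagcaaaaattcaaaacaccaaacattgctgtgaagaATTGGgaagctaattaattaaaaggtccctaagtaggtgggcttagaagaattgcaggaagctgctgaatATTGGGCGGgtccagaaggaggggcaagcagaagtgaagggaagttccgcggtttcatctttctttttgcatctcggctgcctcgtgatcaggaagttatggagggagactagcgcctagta
Zfp933 (chr4:147848369-147848668, minus strand): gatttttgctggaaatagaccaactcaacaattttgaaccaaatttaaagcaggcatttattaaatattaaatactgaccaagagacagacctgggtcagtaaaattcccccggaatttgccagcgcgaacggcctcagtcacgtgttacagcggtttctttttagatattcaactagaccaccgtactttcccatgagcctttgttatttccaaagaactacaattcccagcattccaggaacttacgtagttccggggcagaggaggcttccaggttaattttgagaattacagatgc
Among the 12 KRAB members with a RefSeq promoter near the GENCODE start, 11 held CCAAT (37.4% of all 32851 promoters did), 9 held GGGCGG (35.7% of all) and 0 held TATAAA (13.6% of all), on either strand. The median identity over the 66 pairs of these promoters was 72.4%. It was 87.6% between Gm13212 and Zfp984, 99.3% between Zfp600 and Rex2, 94.4% between Zfp979 and Zfp600, and 45.6% between Zfp979 and Zfp933. A match is a description of the letters in this window and was not tied to binding of any factor.

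In levels, the KRAB members fell into those near 0 in the 6 libraries numbered 1 to 14 but present in the 4 numbered 33 to 38, those transcribed in all 10 libraries, and those near 0 throughout. The summed level of the 21 KRAB members was 22.4 to 30.1 FPKM in libraries 1 to 14 and 34.5 to 46.8 FPKM in libraries 33 to 38. Each library of the first set had 6 KRAB members at 1 FPKM or more, against 9 to 10 in each of the second. At 0.1 FPKM or more there were 7 to 9 in libraries 1 to 14 and 15 to 17 in libraries 33 to 38. The summed level of the 8 other members ran the opposite way, at 57.5 to 66.2 FPKM in libraries 1 to 14 and 42.3 to 48.4 FPKM in libraries 33 to 38. The set of libraries was part of the choice of these members, so their levels by genotype and by library number are described without a test.

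**Figure D1:**
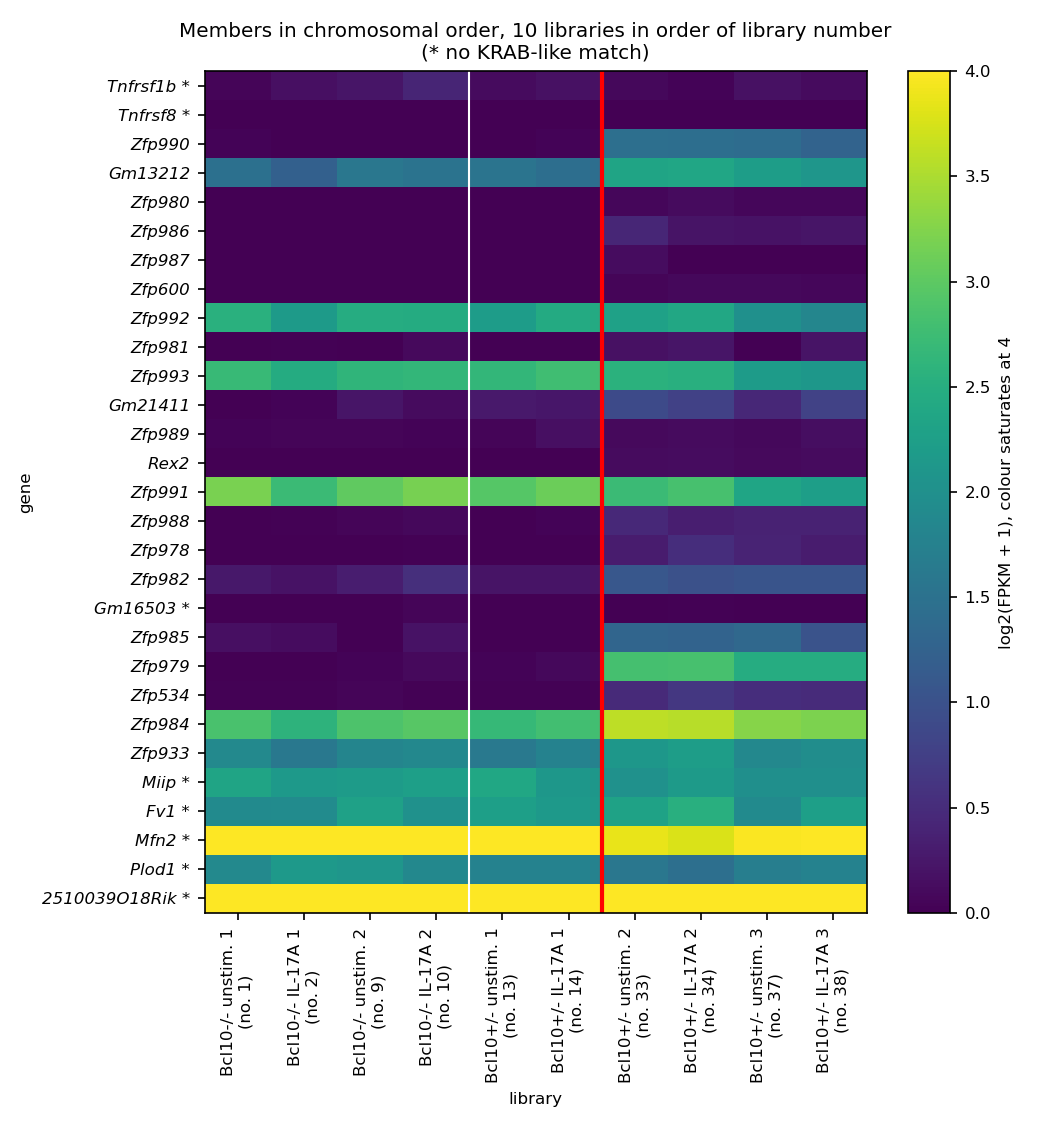
Levels of the 29 members (rows, in chromosomal order) in the 10 libraries (columns, in order of library number), as log2(FPKM + 1) with the colour scale saturating at 4. The white line separates the libraries labelled Bcl10-/- from those labelled Bcl10+/-, and the red line separates numbers 1 to 14 from numbers 33 to 38. Zfp979, Zfp990 and Zfp985 are dark left of the red line and bright right of it, also in the libraries labelled Bcl10+/- culture 1.

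Zfp979 (ENSMUSG00000066000; GRCm38 chromosome 4, 147611937 to 147642513, minus strand) had the widest range of all members on the log2(FPKM + 1) scale. In Bcl10-/- culture 1 it was listed at 0.00952 FPKM with IL-17A and at 0 unstimulated, and in Bcl10-/- culture 2 at 0.0716 FPKM with IL-17A and 0.0268 FPKM unstimulated. In the libraries labelled Bcl10+/- culture 1 it was 0.0604 FPKM with IL-17A and 0.0222 FPKM unstimulated. In Bcl10+/- culture 2 it was 6.16 FPKM with IL-17A and 6.09 FPKM unstimulated, and in culture 3 it was 4.54 FPKM with IL-17A and 4.59 FPKM unstimulated. All 6 libraries numbered 1 to 14 were below 0.1 FPKM, and 4 of these 6 values were at or under what 3 fragments of this gene would give, while the 4 libraries numbered 33 to 38 were all above 4.5 FPKM. The sets did not overlap, and the difference was -2.61 on the log2(FPKM + 1) scale, which understates the change of genes near 0 (-5.38 with a pseudocount of 0.1). Between the labelled genotypes the groups overlapped, because culture 1 labelled Bcl10+/- was as low as the Bcl10-/- cultures. Within libraries 1 to 14 the difference between Bcl10-/- and Bcl10+/- was -0.02. As these are bulk samples, fewer cells of a type and less RNA per cell cannot be told apart.

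Zfp990 (ENSMUSG00000078503; 145510759 to 145539188, plus strand), which starts at -2101 kb from the start of Zfp979, showed the same split at a lower level. It was listed at 0 in 4 of the 6 libraries numbered 1 to 14 and reached 0.0245 FPKM in the highest of them. In libraries 33 to 38 it was 1.71 FPKM with IL-17A and 1.75 FPKM unstimulated in culture 2, and 1.41 FPKM with IL-17A and 1.67 FPKM unstimulated in culture 3. The 6 low values were all at or under what 3 fragments would give.

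Zfp985 (ENSMUSG00000065999; 147553277 to 147585198, plus strand), the neighbour of Zfp979 within the cluster, was at 0 to 0.148 FPKM in libraries 1 to 14 and at 1.04 to 1.55 FPKM in libraries 33 to 38. It was listed at 0 in both libraries labelled Bcl10+/- culture 1 and in the unstimulated library of Bcl10-/- culture 2. The highest of the low values was 0.148 FPKM in the IL-17A library of Bcl10-/- culture 2.

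Zfp982 (ENSMUSG00000078496; 147492417 to 147513486, plus strand) was low but measurable in libraries 1 to 14. Bcl10-/- culture 1 had 0.149 FPKM with IL-17A and 0.202 FPKM unstimulated, culture 2 had 0.448 FPKM with IL-17A and 0.251 FPKM unstimulated, and the libraries labelled Bcl10+/- culture 1 had 0.163 FPKM with IL-17A and 0.156 FPKM unstimulated. Libraries 33 to 38 lay between 0.988 and 1.13 FPKM. The sets did not overlap.

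Gm21411 (ENSMUSG00000045699; 146892406 to 146909590, minus strand), the member with the shortest reading frame among the KRAB members, was at 0 to 0.208 FPKM in libraries 1 to 14 and at 0.36 to 0.858 FPKM in libraries 33 to 38. It was also the only KRAB member below without overlap between the labelled genotypes over both conditions, at 0 to 0.172 FPKM in Bcl10-/- and 0.188 to 0.858 FPKM in Bcl10+/-. Of the 6 values in libraries 1 to 14, 5 were at or under what 3 fragments would give.

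**Figure D2:**
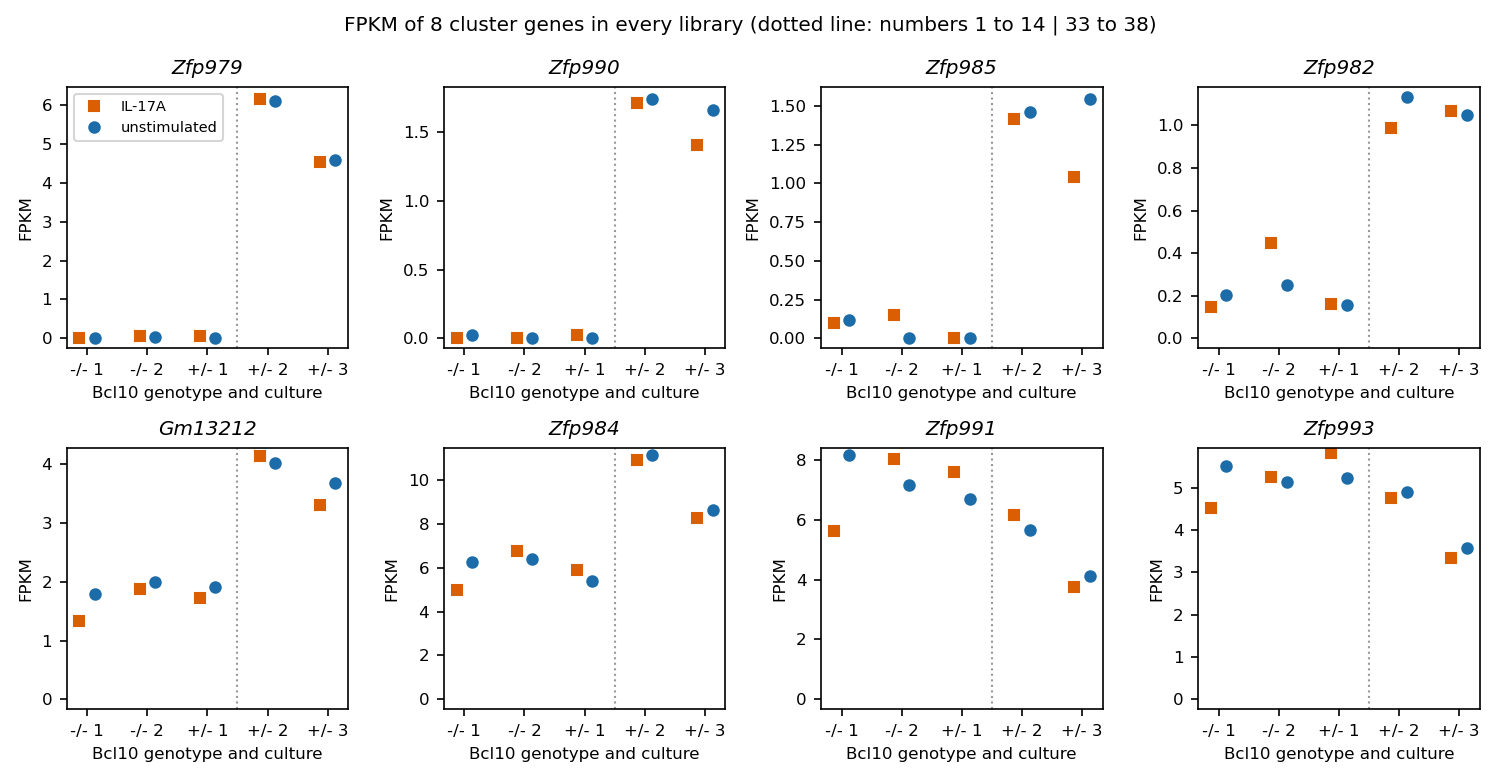
FPKM of 8 KRAB members in every library, by labelled Bcl10 genotype and culture, with IL-17A libraries as orange squares left of the unstimulated libraries as blue circles. The dotted line separates numbers 1 to 14 (left) from 33 to 38 (right): Zfp979, Zfp990 and Zfp985 lie at 0 to 0.148 FPKM and Zfp982 at 0.149 to 0.448 FPKM on the left, and all 4 lie between 0.988 and 6.16 FPKM on the right, Gm13212 and Zfp984 are lower on the left, and Zfp991 and Zfp993 tend to be higher on the left with overlap.

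Further KRAB members repeated the split at very low levels, and these are named after their values were seen. Zfp534 was at 0.0139 to 0.038 FPKM in libraries 1 to 14 and at 0.393 to 0.568 FPKM in libraries 33 to 38. Zfp988 was at 0 to 0.0633 FPKM in libraries 1 to 14 and 0.265 to 0.378 FPKM in libraries 33 to 38, Zfp978 at 0 to 0.0164 FPKM in libraries 1 to 14 and 0.229 to 0.435 FPKM in libraries 33 to 38, and Zfp986 was listed at 0 in all 6 libraries and lay at 0.139 to 0.342 FPKM in the other 4. In all, 9 KRAB members were at or under the value of 3 fragments in every library numbered 1 to 14, and 8 of these 9 were above it in every library numbered 33 to 38. The exception was Zfp987, listed at 0 in 9 libraries and at 0.0981 FPKM in the unstimulated library of Bcl10+/- culture 2. There were 11 KRAB members under 0.1 FPKM in all 6 libraries numbered 1 to 14 and 4 under 0.1 FPKM in all 10 libraries. The share of all genes that meet these patterns was not counted. The split was also part of the choice of the members, so nothing is read from these counts.

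Among the KRAB members transcribed in every library, Zfp984 and Gm13212, the pair with related promoters, were lower in libraries 1 to 14. Zfp984 (ENSMUSG00000078495; 147753974 to 147809788, minus strand) was at 5.0 to 6.78 FPKM there and at 8.26 to 11.2 FPKM in libraries 33 to 38, a difference of -0.62. Gm13212 (ENSMUSG00000078502; 145585166 to 145625345, plus strand) was at 1.34 to 2.0 FPKM in libraries 1 to 14 and 3.31 to 4.14 FPKM in libraries 33 to 38, a difference of -0.79. Neither pair of ranges overlapped. The 2 genes lie far apart, at opposite ends of the cluster, and share transcript sequence as given above.

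Zfp991, Zfp992 and Zfp993, whose KRAB windows are identical, kept their transcripts in all libraries. Zfp991 (ENSMUSG00000067916) averaged 7.22 ± 0.955 FPKM in libraries 1 to 14 (SD, n = 6) and 4.92 ± 1.17 FPKM in libraries 33 to 38 (SD, n = 4). Its ranges overlapped, at 5.64 to 8.19 FPKM in libraries 1 to 14 and 3.75 to 6.18 FPKM in libraries 33 to 38. Zfp993 (ENSMUSG00000063245) ranged over 4.52 to 5.82 FPKM in libraries 1 to 14 and 3.35 to 4.91 FPKM in libraries 33 to 38, and Zfp992 (ENSMUSG00000070605) over 3.52 to 4.79 FPKM in libraries 1 to 14 and 2.59 to 4.27 FPKM in libraries 33 to 38. Znf41-ps, the pseudogene closest in sequence to Zfp991, was at 5.68 to 8.3 FPKM in libraries 1 to 14 and at 4.4 to 6.44 FPKM in libraries 33 to 38. Without the IL-17A library of Bcl10-/- culture 1, which is the deepest, Zfp991 and Zfp993 no longer overlapped and were higher in libraries 1 to 14. Zfp933 (ENSMUSG00000059423), the most diverged member, overlapped at 2.05 to 2.67 FPKM in libraries 1 to 14 and 2.64 to 3.66 FPKM in libraries 33 to 38.

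Counted over the 21 KRAB members, 14 were lower without overlap in libraries 1 to 14, 0 were higher and 7 overlapped. Among the 20917 genes above 0 in any library, 11.3% were lower and 11.5% were higher without overlap. The rule that chose the cluster used this split, so nothing is read from the difference. The count was also 14 of 21 lower and 0 higher after TPM scaling and after median-of-ratios scaling, and it was 15 lower and 0 higher when both libraries labelled Bcl10+/- culture 1 were left out. For these alternatives the share of all genes was not counted. At a mean of at least 1 FPKM, 3 of the 7 KRAB members were lower and 0 higher, where 18.4% of 12054 genes were lower and 17.4% higher. The median difference of these 7 was -0.28 (log2 scale), against -0.02 over all 12054 genes, and their median absolute difference was 0.49, against 0.22. Zfp979, among the 3 lower, passed this filter only through libraries 33 to 38 (mean 5.35 FPKM, against 0.0317 FPKM in libraries 1 to 14). Nothing is read from these values either, since they use the same split.

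Of the 8 other members, 3 were higher without overlap in libraries 1 to 14, 0 were lower and 5 overlapped. Among the 20917 genes above 0 in any library, 11.5% were higher and 11.3% lower without overlap. Nothing is read from this count or from its contrast with the KRAB members, since it uses the same split. Mfn2, a mitochondrial fusion protein gene, was at 18.5 to 21.2 FPKM in libraries 1 to 14 and 12.6 to 15.2 FPKM in libraries 33 to 38. 2510039O18Rik was at 29.5 to 36.6 FPKM in libraries 1 to 14 and 19.6 to 25.5 FPKM in libraries 33 to 38. Plod1, which encodes a collagen lysyl hydroxylase, was at 2.421 to 3.51 FPKM in libraries 1 to 14 and 1.77 to 2.415 FPKM in libraries 33 to 38, so its sets nearly touch. Miip, an inhibitor of cell migration and invasion in human cells, lay at 3.35 to 4.19 FPKM in libraries 1 to 14 and 2.96 to 3.54 FPKM in libraries 33 to 38, and Fv1, which restricts murine leukaemia virus through its capsid, at 2.75 to 3.9 FPKM in libraries 1 to 14 and 2.77 to 4.76 FPKM in libraries 33 to 38, both with overlap. Tnfrsf1b, the gene of TNF receptor 2, did not exceed 0.338 FPKM, and Gm16503 did not exceed 0.0383 FPKM, and both are named after their values were seen.

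**Figure D3:**
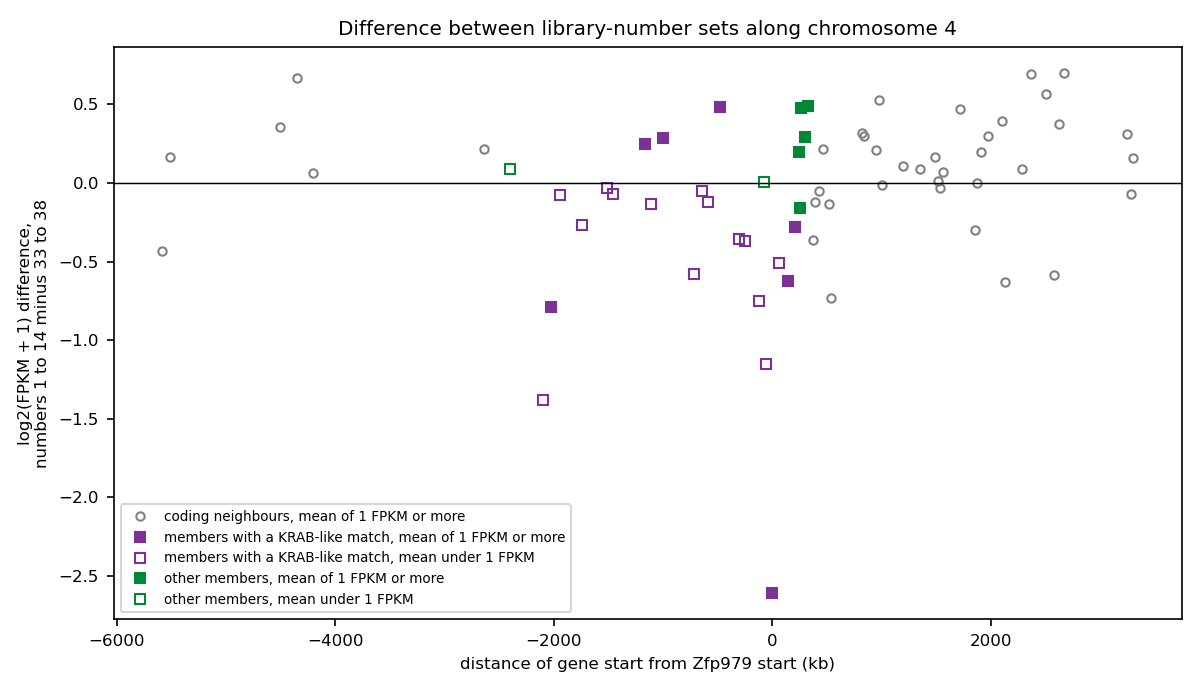
Difference in log2(FPKM + 1) between libraries 1 to 14 and libraries 33 to 38 for members and neighbouring protein-coding genes, against the distance of each gene start from that of Zfp979 in kb. Purple squares are KRAB members, green squares other members (filled at a mean of at least 1 FPKM, open below it) and grey circles neighbours. Zfp979 stands lowest at -2.61, and the KRAB members above 0 are Zfp991, Zfp992 and Zfp993.

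Pseudogenes of the interval and genes at its flanks were set beside the members. Of the 16 pseudogenes inside it that averaged 1 FPKM or more (42 are listed), 0 were higher and 3 lower without overlap (background 17.4% higher and 18.4% lower of 12054 genes), with a median difference of -0.01 and a median absolute difference of 0.07. Of 39 neighbouring coding genes at that level, from within 3000000 bases of either edge, 14 were higher and 5 lower against the same background, with a median of 0.16. Among the neighbours chosen for the largest difference between labelled genotypes, H6pd (endoplasmic reticulum hexose-6-phosphate dehydrogenase) was at 5.24 to 6.57 FPKM in libraries 1 to 14 and 2.56 to 4.04 FPKM in libraries 33 to 38. Pdpn (podoplanin) was at 48.5 to 63.6 FPKM in libraries 1 to 14 and 30.8 to 36.0 FPKM in libraries 33 to 38 and Rere at 5.47 to 8.86 FPKM in libraries 1 to 14 and 3.24 to 5.01 FPKM in libraries 33 to 38. Fbxo6 was at 9.39 to 12.3 FPKM in libraries 1 to 14 and 15.7 to 20.5 FPKM in libraries 33 to 38 and Slc25a33 at 7.17 to 9.46 FPKM in libraries 1 to 14 and 11.4 to 16.5 FPKM in libraries 33 to 38. Nppb overlapped, at 29.4 to 61.2 FPKM in libraries 1 to 14 and 39.0 to 74.7 FPKM in libraries 33 to 38.

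Genes elsewhere in the genome with a KRAB-like match and C2H2 matches were compared as the nearest relatives. Of 89 such genes averaging 1 FPKM or more, 17 were lower and 4 higher without overlap, where 18.4% of the 12054 genes were lower and 17.4% higher. The median difference of the 89 was -0.23. In the whole table, 16 of the 37991 identifiers were under 0.1 FPKM in all 6 libraries and at 0.1 FPKM or more in the other 4, and 6 of these 16 were KRAB members (Zfp990, Zfp986, Zfp988, Zfp978, Zfp979 and Zfp534). With at least 1 FPKM in the libraries numbered 33 to 38 there were 2 identifiers, Zfp979 and Zfp990. The interval was placed around Zfp979 because of its levels in these libraries, so its place in these counts was set by the choice. The counts are a description from which nothing is read. The opposite pattern was met by 19 identifiers, and 0 of them lay in the interval.

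The partners of KRAB zinc finger proteins were transcribed in every culture. Of 35 genes for corepressors, H3K9 methylation and DNA methylation with a mean of at least 1 FPKM, 11 were higher and 2 lower without overlap in libraries 1 to 14, where 17.4% of the 12054 genes were higher and 18.4% lower. The median difference of the 35 was 0.13, and most of the 35 overlapped. The 6 genes described next were chosen for the largest difference between labelled genotypes. They do not include the 2 lower genes, Morc3 and Smarcad1. Trim28, the corepressor bound by the KRAB box, was at 72.3 to 81.3 FPKM in libraries 1 to 14 and 51.5 to 62.3 FPKM in libraries 33 to 38. The maintenance methyltransferase gene Dnmt1 was at 42.8 to 49.9 FPKM in libraries 1 to 14 and 21.8 to 34.1 FPKM in libraries 33 to 38, and its partner Uhrf1 at 44.7 to 50.7 FPKM in libraries 1 to 14 and 28.5 to 39.8 FPKM in libraries 33 to 38. Atf7ip, a SETDB1 partner, was at 10.2 to 11.9 FPKM in libraries 1 to 14 and 6.88 to 8.7 FPKM in libraries 33 to 38, and Chd3, of the NuRD complex, at 6.19 to 7.62 FPKM in libraries 1 to 14 and 3.16 to 4.65 FPKM in libraries 33 to 38. Sumo2 overlapped, at 9.46 to 39.0 FPKM in libraries 1 to 14 and 9.79 to 18.3 FPKM in libraries 33 to 38. Between the labelled genotypes, 0 of the 35 separated over both conditions, where 3.09% of the 12054 genes were higher and 2.21% lower in Bcl10-/-. With so small a background share, nothing is read from this count.

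Markers of other cells also differed between the sets of libraries. The 7 melanocyte markers summed to 171 to 201 FPKM in libraries 1 to 14 and 320 to 411 FPKM in libraries 33 to 38. The 8 fibroblast markers summed to 1.45 to 37.0 FPKM in libraries 1 to 14 and 0.496 to 0.775 FPKM in libraries 33 to 38, the highest being Bcl10-/- culture 2 with Col1a1 at 10.6 FPKM with IL-17A and 10.8 FPKM unstimulated. The 10 keratinocyte markers summed to 11210 to 12570 FPKM in libraries 1 to 14 and 8827 to 10350 FPKM in libraries 33 to 38. The 4 endothelial markers summed to 4.4 to 6.04 FPKM in libraries 1 to 14 and 5.17 to 6.03 FPKM in libraries 33 to 38. Of the 6 T cell and Langerhans cell markers in the table and the 6 markers of pluripotent or germ cells, in which genes of this cluster are active in mouse, 4 and 5 were at 0 in every library of each set, and the sums did not exceed 0.0367 FPKM. The part of these differences in the levels of the cluster was not tested.

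By labelled genotype, most members overlapped. Over both conditions, 1 of the 12 members averaging 1 FPKM or more was higher without overlap in Bcl10-/- libraries and 0 were lower, where 3.09% of 12054 genes were higher and 2.21% lower. The member was Plod1, with 2.65 to 3.51 FPKM in Bcl10-/- and 1.77 to 2.44 FPKM in Bcl10+/- libraries. With IL-17A, 2 were higher and 1 lower (background 14.8% higher and 13.8% lower), and unstimulated, 3 were higher and 0 lower (background 12.3% higher and 15.4% lower). Within libraries 1 to 14, Plod1 was higher and Mfn2 lower in the Bcl10-/- libraries, with Mfn2 at 18.5 to 20.0 FPKM in Bcl10-/- and 20.4 to 21.2 FPKM in Bcl10+/- (background 8.29% higher and 7.65% lower). Leaving out both libraries labelled Bcl10+/- culture 1 raised the count over both conditions to 6 of 12, with 3 higher and 3 lower, since the comparison then has the same libraries on each side as the split by number. The share of all genes was not counted for that comparison. Over the 28 members above 0 in any library, 1 was higher and 1 lower over both conditions (2.38% and 1.42% of 20917 genes), 2 higher and 6 lower with IL-17A (13.2% and 9.75%), 3 higher and 1 lower unstimulated (10.7% and 11.3%), and 2 higher and 2 lower within libraries 1 to 14 (6.96% and 6.33%). Within the libraries labelled Bcl10+/-, culture 1 against cultures 2 and 3, 5 of the 12 members were higher and 4 lower without overlap (background 26.8% higher and 28.5% lower), and 5 higher and 15 lower of the 28 (19.4% and 18.8%). Labelled genotype and library number cannot be told apart for cultures 2 and 3, since no Bcl10-/- library is numbered 33 to 38.

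The 2 cultures with higher KRAB member levels also differed from each other. Of the 9 KRAB members at 1 FPKM or more in each of the 4 libraries numbered 33 to 38, 9 were lower in Bcl10+/- culture 3 than in culture 2 by the mean of the 2 libraries, as were 6118 of all 12054 genes. The median difference was -0.35 on the log2(FPKM + 1) scale, with a range of -0.49 to -0.1, against a median of -0.01 over all 12054 genes. Each side is a single culture. Several of the 9 genes share transcript sequence, such as Zfp991 with Zfp993, so they are not independent observations.

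No member passed the threshold for IL-17A. The fit with limma on log2(FPKM + 1), with p-values adjusted over 12054 genes by Benjamini-Hochberg and a threshold of 0.05, called 0 of the 12 members in Bcl10-/- cells, where it called 0.0249% of all genes, and 0 of 12 in Bcl10+/- cells (0.0083% of all genes). It called 0 of 12 for the mean of both genotypes (0.0498% of all genes) and 0 of 12 for the difference between the genotypes' responses (0% of all genes). No member had an unadjusted p under 0.05 in these 4 limma comparisons, against 176, 162, 175 and 143 genes of the table. Adjusted p was 1 for every member within each genotype. Few genes of any kind were called in this fit, which leaves the spread between cultures in its error. With culture as a block in the limma fit, 607, 835, 716 and 624 genes had an unadjusted p under 0.05 in the same 4 comparisons, and again no member did.

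Zfp979 differed little within each culture. Its IL-17A and unstimulated values differed by 0.01 and 0.06 on the log2(FPKM + 1) scale in Bcl10-/- cultures 1 and 2, and by 0.05, 0.01 and -0.01 in Bcl10+/- cultures 1, 2 and 3. The mean effect was 0.03 with a 95% confidence interval of -1.47 to 1.53 (limma, adjusted p = 0.9999). With each library left out in turn it ranged over -0.41 to 0.46, the ends being without the unstimulated and without the IL-17A library labelled Bcl10+/- culture 1. It was also below 0 without the IL-17A library of Bcl10+/- culture 2 (-0.23) or of culture 3 (-0.14). The interval carries the spread between cultures, and with culture as a block it was -0.12 to 0.17 (limma, adjusted p = 0.9691).

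Without the block the other members had narrower intervals than Zfp979, and theirs are given with culture as a block and without it. In Bcl10-/- cells, Zfp992 differed by -0.18 (95% confidence interval -0.51 to 0.14 with the block, -0.65 to 0.29 without) and 2510039O18Rik by 0.13 (-0.09 to 0.36 with, -0.39 to 0.66 without). In Bcl10+/- cells, Fv1 differed by 0.15 (-0.13 to 0.42 with, -0.21 to 0.5 without) and Zfp933 by 0.12 (-0.09 to 0.32 with, -0.25 to 0.48 without). The difference between the genotypes' responses was -0.27 for Fv1 (-0.71 to 0.16 with, -0.83 to 0.29 without) and -0.23 for Zfp933 (-0.55 to 0.09 with, -0.81 to 0.35 without). Zfp991 was lower with IL-17A in Bcl10-/- culture 1, at 5.64 FPKM against 8.19 FPKM unstimulated, and higher in culture 2, at 8.05 FPKM against 7.15 FPKM unstimulated. Zfp933 was higher with IL-17A in 4 of 5 cultures and Gm13212 in 1 of 5. In both fits the intervals of all 12 members include 0 in the 4 comparisons, and they leave room for changes of the size of their bounds.

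**Figure D4:**
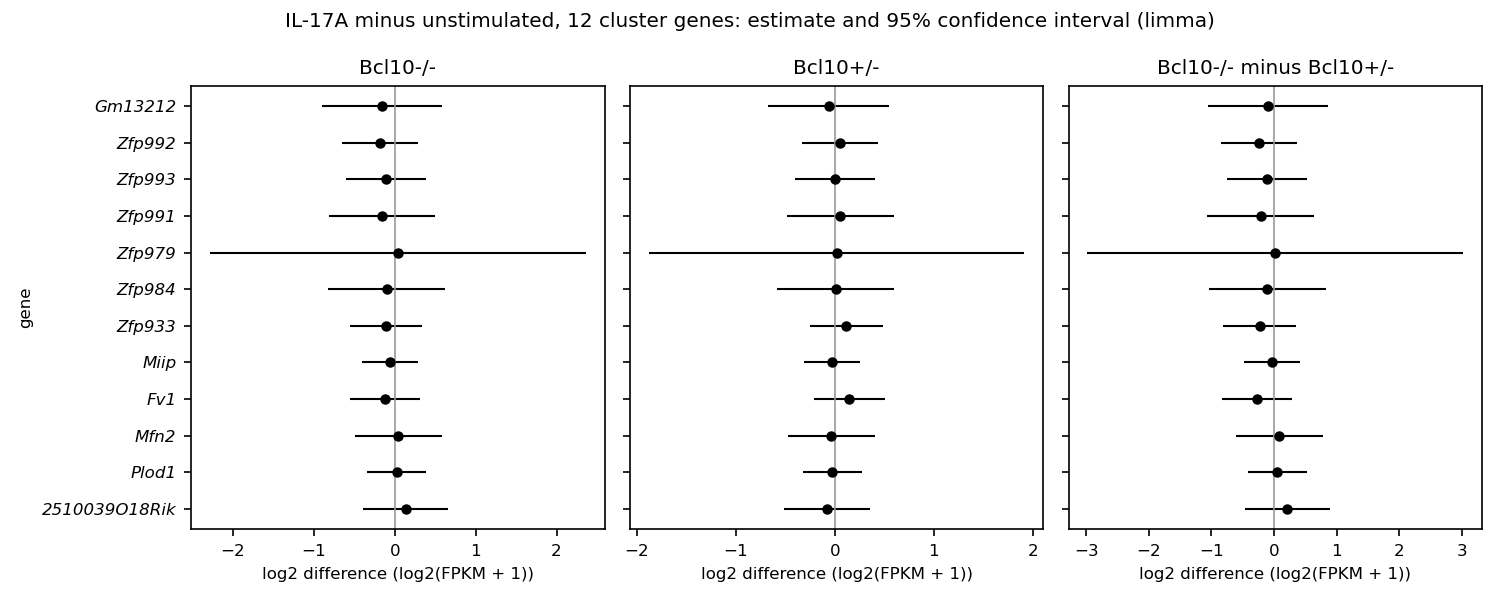
IL-17A effect on the 12 members averaging 1 FPKM or more, as log2(FPKM + 1) differences with 95% confidence intervals from limma, in Bcl10-/- cells, in Bcl10+/- cells and as the difference between them. Every interval includes 0, and that of Zfp979 is the widest (-2.29 to 2.36 in Bcl10-/- cells, -1.88 to 1.92 in Bcl10+/- cells and -2.98 to 3.02 for the difference); these intervals come from the fit without culture as a block.

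The differences between the sets of libraries were set beside the share of sequence that each KRAB member has in common with other genes. Of the 5 KRAB members with the largest differences on the log2(FPKM + 1) scale, Zfp979, Zfp990, Zfp985 and Zfp982, with 11.9% to 29.1% of stretches shared, differed by -2.61, -1.38, -1.15 and -0.75, and Gm13212, with 56.8% shared, differed by -0.79. With a pseudocount of 0.1, Gm21411, with 65.8% shared, also differed more than Zfp982, at -1.93 for Gm21411 and -1.88 for Zfp982, so the order depends on the scale. Rex2 and Zfp600 are named here after their values were seen. Rex2, with 89.1% shared, was at 0 to 0.0029 FPKM in libraries 1 to 14 and 0.0739 to 0.0999 FPKM in libraries 33 to 38, and Zfp993, with 86.8% shared, differed by 0.29 with overlap. Zfp600, whose promoter has 94.4% identity with that of Zfp979, reached 0.059 FPKM at most in any library. These are descriptions over 21 genes that share libraries and, in part, reads.

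**Figure D5:**
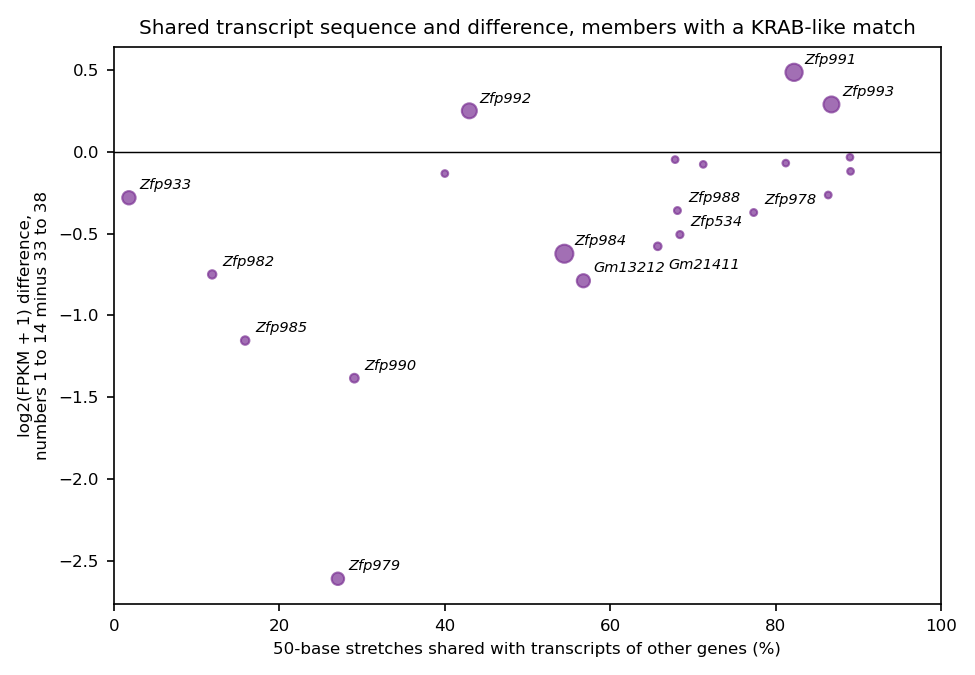
Difference in log2(FPKM + 1) between libraries 1 to 14 and libraries 33 to 38 for the 21 KRAB members, against the percentage of 50-base stretches shared with transcripts of other genes; larger points have a higher mean FPKM. Zfp979 stands at 27.1% shared and -2.61, and Zfp991 at 82.2% shared and 0.49.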

How the data were processed

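The authors deposited FPKM values of 37991 Ensembl identifiers for the 10 libraries. HISAT2, SAMtools, StringTie, DESeq2 and the build mm10 are named in the submitters' processing notes. Versions, annotation, strand setting and the treatment of reads that map to several copies were not given in the sources used here. Per the labels' protocols, 100 ng of total RNA was poly(A)-selected for each library. A count model does not suit deposited FPKM and none was fitted.

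Identifiers were matched to GENCODE M21 on GRCm38 (32938 matched), and the members were those of the stated interval. The members and lists were chosen with earlier results of these data known. The named members were those with a mean of at least 1 FPKM, Zfp979 and the 10 with the widest range of log2(FPKM + 1), and of the cofactors and of the neighbours the 6 with the largest genotype difference; members named beyond that are marked. KRAB-like matches (within the first 150 codons) and C2H2 matches were searched in translated longest reading frames of GENCODE transcripts, in place of the RefSeq proteins that the written plan had named, which were not used here. Promoter windows came from RefSeq.

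Library depth was inferred from how low values of single-exon genes (300 to 3000 bases) step: 48.6% to 55.3% of values lay within 0.05 of a whole fragment (10% if evenly spread). Floors of 3 fragments cover counting error only.

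IL-17A was tested with limma 3.58.1 in R 4.3.3 on log2(FPKM + 1), with a mean-variance trend, with a coefficient per group over all 10 libraries, for the 12054 genes averaging 1 FPKM or more; tests were two-sided with Benjamini-Hochberg adjustment. The script was tested on data with known answers. Genotype and library-number differences are mean log2(FPKM + 1) differences and counts of genes whose groups do not overlap, with no test. A log2 difference on this scale understates changes near or below 1 FPKM. The labels do not say whether replicates are separate animals, so p-values cover only library-to-library spread, which may be technical. Libraries of the same replicate number deviated together (correlation of their deviations from the group means over 12054 genes of 0.227 in Bcl10-/- and 0.607, 0.488 and 0.137 in Bcl10+/- cultures 1 to 3). These values do not settle the pairing. The Bcl10-/- value is the same for both cultures because each group has 2 libraries. The Bcl10+/- values also carry the split by library number, which sets culture 1 apart. Replicate numbers were assumed to pair libraries within a genotype. Alternatives changed the pseudocount, the filter, the scaling, the block and the libraries used. The cofactor list had 37 genes, of which 36 were in the table.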

Additional observations from a re-analysis of the deposited data

How the results depend on the processing

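With each alternative run (a replicate block for culture, a pseudocount of 0.1, a mean of at least 0.1 FPKM or no filter, TPM or median-of-ratios scaling, each library left out, and both libraries labelled Bcl10+/- culture 1 left out), the 4 IL-17A comparisons called 0 members. The replicate block also changed no call of a member, and the count of all genes called with it was 0 in Bcl10-/-, 0 in Bcl10+/-, 13 for the mean of both and 0 for the difference, against 3, 1, 6 and 0 without it. With each library left out in turn, these gene counts were 0 to 12, 0 to 2, 1 to 7 and 0 to 6. A block with a mean of at least 0.1 FPKM, added after seeing the data, called 0, 0, 9 and 0 genes.

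Among members with a mean of at least 1 FPKM, the count that did not overlap was 6 between the sets of library numbers, 1 between labelled genotypes, 3 with IL-17A and 3 unstimulated. A mean of at least 0.1 FPKM, which admits 20 members, gave 13, 2, 5 and 4. TPM scaling, which admits 15, gave 10, 1, 5 and 3. Without Bcl10+/- culture 1 the counts were 6, 6, 8 and 10. Each library left out in turn gave 6 to 8 by library number, 1 to 2 by genotype, 3 to 8 with IL-17A and 3 to 10 unstimulated. With IL-17A the count was 6 without that library of Bcl10-/- culture 1, 7 without that of Bcl10-/- culture 2 and 8 without that of Bcl10+/- culture 1. Unstimulated it was 7 without that library of Bcl10-/- culture 2 and 10 without that of Bcl10+/- culture 1. By genotype it was 2 without the IL-17A library of Bcl10-/- culture 1. Smaller groups separate more easily for any gene, and the share of all genes was not counted under these alternatives. The counts show how far the description depends on the setting and are not read as a result about the members. The Zfp979 difference between the sets stayed between -2.67 and -2.55 with each library left out, and was -3.75 with TPM scaling. Depth limits members near 0: below 3 fragments, presence and absence cannot be told apart.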
